A study of Mus musculus with 6 samples.

Results

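A set of 10 long noncoding RNA (lncRNA) genes was followed in ischemic mouse retina with and without chronic intermittent hypoxia (CIH). They are Malat1, Neat1, Meg3, Miat, Snhg11, Kcnq1ot1, Rmst, Six3os1, Vax2os and Tug1, which were chosen by name as lncRNAs of the retina, with earlier results of these data known, and which make up 10 of the 32285 genes counted and 10 of the 20021 with enough reads to be tested. Retinas of C57BL/6J mice were collected at postnatal day 18 (PN18). Pups of every group, kept with their mothers, had breathed 75% O2 from PN8 to PN13, the model of oxygen-induced retinopathy (OIR) in which the central capillaries are lost and new vessels then grow. The 3 OIR-CIH retinas came from pups that afterwards spent 10 h of each day in CIH, made of 266 cycles of 135 s in which O2 dropped from 20.95% to 5%, and the 3 OIR-Norm retinas from pups given an equal gas flow and noise at constant O2. The question asked of these RNAs is whether CIH, which mimics severe sleep apnea, changed their level in the ischemic retina. No retina without OIR is analysed here, so every comparison is between 2 ischemic groups.

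LncRNAs are transcripts longer than a microRNA precursor that do not serve as templates for a known protein. Several of them act in the nucleus: Malat1 sits in nuclear speckles, the stores of splicing factors; Neat1 is the scaffold around which paraspeckles assemble; and Kcnq1ot1 and Meg3 belong to imprinted clusters, in which only the copy from 1 parent is expressed. In the retina, Tug1 was first described as a transcript needed for photoreceptor differentiation, Miat (also called Gomafu) as a nuclear RNA of retinal precursors, and Six3os1 and Vax2os as opposite-strand partners of the eye transcription factor genes Six3 and Vax2.

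Libraries were made with a kit that picks RNA by its poly(A) tail, so the 3′ ends of these RNAs bear on what could be counted, and 4 such stretches of 100 bases are shown (GENCODE M21 transcripts, DNA letters). The capitals mark the polyadenylation signal AATAAA in the short Neat1 transcript and at the annotated end of Malat1, and the A-rich tract AAAAAGCAAAA that closes the long Neat1 transcript and lies inside annotated Malat1. Such A-rich tracts are left when these RNAs are cut by RNase P, and they fold into a triple helix in place of a poly(A) tail.
Neat1, short transcript of 3004 bases: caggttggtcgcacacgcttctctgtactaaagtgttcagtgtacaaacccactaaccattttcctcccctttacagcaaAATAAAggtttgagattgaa
Neat1, long transcript of 20771 bases: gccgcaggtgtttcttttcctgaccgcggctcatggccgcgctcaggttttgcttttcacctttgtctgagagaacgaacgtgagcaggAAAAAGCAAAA
Malat1, annotated end of the transcript of 6983 bases: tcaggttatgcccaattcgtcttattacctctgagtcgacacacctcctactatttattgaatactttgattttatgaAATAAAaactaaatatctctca
Malat1, bases 6592 to 6691 of the same transcript: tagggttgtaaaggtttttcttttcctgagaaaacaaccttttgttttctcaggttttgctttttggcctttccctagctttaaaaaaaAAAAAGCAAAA
The A-rich tract of Malat1 ended 292 bases before the annotated end, and that of the long Neat1 transcript was its last 11 bases. AATAAA stood within the last 50 bases of 24 of the 70 annotated transcripts of these 10 genes (34.3%), against 31% of the 96419 transcripts of the genes tested. At least 1 transcript of 9 of the 10 genes had it, and Miat was the exception. Because counts were summed per gene, the short and long Neat1 transcripts cannot be told apart.

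Miat carries repeats of TACTAAC, the sequence that a splicing factor reads at branch points, and the densest stretch of its longest transcript, of 9163 bases, is shown with these 3 repeats in capitals (transcript bases 4921 to 5092).
Miat, longest transcript: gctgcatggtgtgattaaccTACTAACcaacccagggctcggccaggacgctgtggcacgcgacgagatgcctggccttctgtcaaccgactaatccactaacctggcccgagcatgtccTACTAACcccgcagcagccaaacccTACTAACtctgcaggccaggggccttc
The whole transcript held 6 copies on its own strand and 0 on the other. Of 220153 windows of 300 bases from the longest transcripts of the genes tested, 0.669% held at least 1 copy and 0.00273%, which is 6 windows, held 3 or more. These windows were adjacent tiles, whereas the Miat stretch was the best of all positions, so the shares are not a like rate for it.

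Rmst and Meg3 are also hosts of microRNAs, and the mature forms that RefSeq (GRCm38.p6) places inside them on the same strand are shown because the deposited table counts the host alone and holds 0 genes typed as miRNA. The seed, bases 2 to 8, is in capitals.
miR-135a-5p, in Rmst, chr10:92072141-92072163: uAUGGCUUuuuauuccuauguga
miR-135a-2-3p, in Rmst, chr10:92072104-92072124: uGUAGGGAuggaagccaugaa
miR-1251-5p, in Rmst, chr10:92137190-92137210: aCUCUAGCugccaaaggcgcu
miR-1251-3p, in Rmst, chr10:92137152-92137172: cGCUUUGCucagccaguguag
miR-770-5p, in Meg3, chr12:109563710-109563731: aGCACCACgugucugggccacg
miR-770-3p, in Meg3, chr12:109563744-109563765: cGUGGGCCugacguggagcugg
miR-1906, in Meg3, chr12:109544588-109544609: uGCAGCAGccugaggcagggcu
No seed was shared among these 7 microRNAs.

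The total count per library was between 26289905 and 38010151, and the ranges of the 2 groups overlapped. Rod photoreceptor markers, the defining RNAs of this tissue, summed to between 42882 and 56544 CPM in each library. Xist RNA (298 to 1653 CPM, that is, counts scaled to a common library total) and the summed RNA of 4 Y-linked genes (57.3 to 184 CPM) were both present in every library. Both in 1 library do not match 1 animal per library, and the methods give 3 dissected eyes per group, so each n below is a number of libraries, and how many animals a library holds is unknown. The summed level of pigment epithelium, amacrine and horizontal cell, astrocyte and microglia markers differed between the groups without overlap. Sums of rod, cone, bipolar, ganglion cell, Müller glia, endothelial and mural, lens and blood markers overlapped. Sums weigh abundant markers most, and single markers could still lean 1 way. Higher in OIR-CIH were 6 of 6 rod, 4 of 5 cone, 2 of 5 bipolar, 4 of 6 ganglion cell and 4 of 5 Müller glia markers. The same held for 0 of 7 endothelial and mural, 0 of 4 lens and 1 of 5 blood markers. For scale, the groups did not overlap for 18.4% of the single genes tested, and 0.315% were called as defined below. Of the 20021 genes tested, 9840 were higher in OIR-CIH. Pigment epithelium markers summed to 207 to 319 CPM in OIR-CIH and 126 to 201 in OIR-Norm, with 3 of 5 markers higher, 2 lower and 0 called, and amacrine and horizontal cell markers to 403 to 482 and 383 to 402.7, with 6 of 6 higher and 0 called. Astrocyte markers summed to 90.2 to 102 and 157 to 201, with 3 of 3 lower and 1 called (Gfap). Gfap alone had a mean of 63.8 CPM in OIR-CIH and 142 in OIR-Norm. Microglia markers summed to 86.1 to 100.5 and 103 to 121, with 7 of 8 lower and 0 called. Lens markers reached 239 CPM in OIR-Norm 2 and lay between 8.84 and 39.9 in the other 5 libraries. In bulk RNA, fewer cells of a type and less RNA per cell cannot be told apart. The part of these markers in the values below was not tested.

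Levels of different genes were compared only per length, as CPM per kilobase of merged exons averaged over the 6 libraries. Malat1 stood at 146 CPM per kilobase, Snhg11 at 56.9, Meg3 at 38.9 and Vax2os at 36.3. Tug1 followed at 13.9, Six3os1 at 8.93 and Miat at 5.24, and Rmst at 1.54, Neat1 at 1.23 and Kcnq1ot1 at 0.296 closed the order. Each gene was above the next in all 6 libraries, except that Meg3 was above Vax2os in 4 and Rmst above Neat1 in 5, so these 2 pairs of neighbours were not separated beyond the spread. Among the 3607 lncRNA genes tested, Snhg11 included, 4 of the 10 ranked in the first 25 per length and 6 in the first 100. The name abundant holds per length of merged exons for Malat1, Snhg11, Meg3 and Vax2os, whereas Rmst ranked 622, Neat1 743 and Kcnq1ot1 1745. By CPM, which favours long genes, these 3 ranked 177, 74 and 69. The place of Neat1 depends on the length taken. Over the 3004 bases of its short transcript, instead of the merged 20771, its level would be 8.50 CPM per kilobase, between Six3os1 and Miat. The same holds for other genes with several transcripts. Those of Meg3 have 421 to 14548 bases against 18089 merged, and those of Vax2os 595 to 4063 against 5406. The order therefore holds for merged exons, and which transcripts were present was not tested. Snhg11 is typed as protein coding in GENCODE M21 and as lncRNA in RefSeq, and the other 9 are lncRNAs in both.

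**Figure D1:**
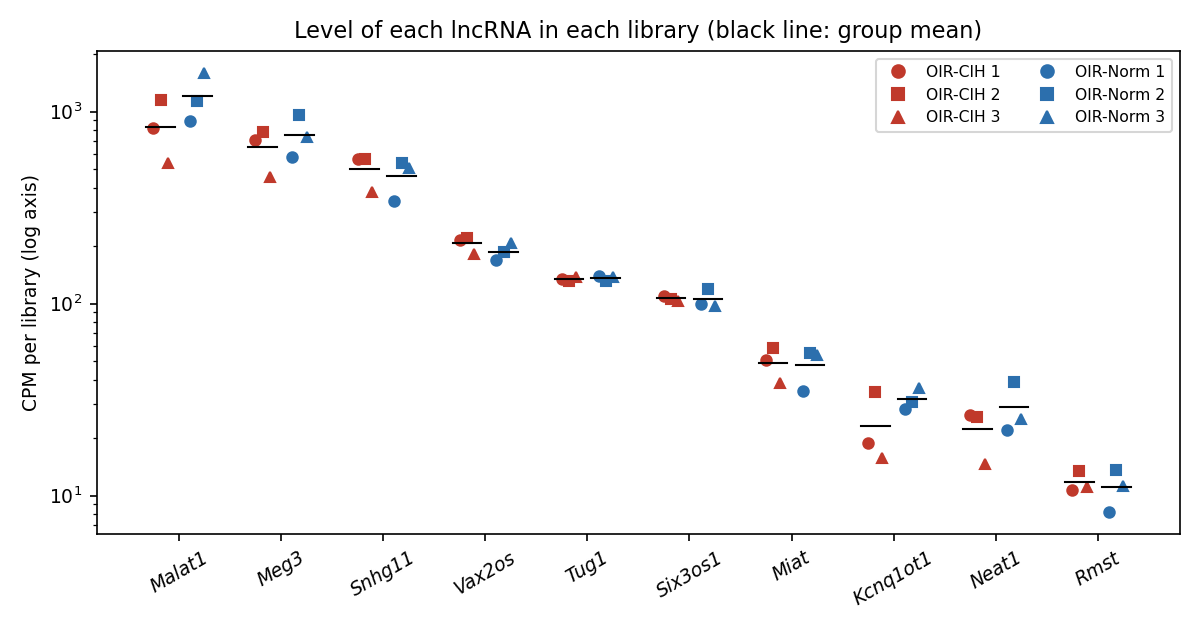
Level of each lncRNA in CPM on a log axis, with 1 point per library (3 OIR-CIH in red, 3 OIR-Norm in blue) and a black line at each group mean. Levels are not divided by length here, so heights are comparable within a gene, and for every gene the red and blue points overlap.

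Across these 10 RNAs, none passed the test between the groups. A gene was called when its Benjamini-Hochberg adjusted p from edgeR's quasi-likelihood test was under 0.05 and its absolute log2 fold change was over 0.5, and 0.315% of the 20021 genes tested were called. Of the 10 genes, 0 were called, beside 0.0554% of the 3607 lncRNA genes tested, and the adjusted p ranged from 0.368 to 0.968. The values of the groups did not overlap for 0 of the 10, against 18.4% of all genes tested, and an unadjusted p under 0.05 was found for 1 of them (Malat1), against 13.4%. With DESeq2, 0 of the 10 were called and 0 had an unadjusted p under 0.05. The mean was lower in OIR-CIH for 5 of the 10 and higher for 5, with a median log2 fold change of -0.005, equal to that over all genes at this precision. What set the genes apart from each other was the spread between libraries, described after the values.

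Malat1 (ENSMUSG00000092341, chr19:5795690-5802672, minus strand), the speckle RNA, stood at 822, 1146 and 537 CPM in the OIR-CIH libraries and at 894, 1129 and 1593 CPM in the OIR-Norm libraries. OIR-CIH 3 was low and OIR-Norm 3 high, and the OIR-CIH 2 value lay above 2 of the 3 controls. The mean was 835 ± 305 CPM (SD, n = 3) against 1205 ± 355 (SD, n = 3), a log2 fold change of -0.53 (standard error 0.24, 95% interval -1.05 to -0.00776). Its edgeR adjusted p was 0.368, and an exact two-sided permutation test of the CPM gave p = 0.3, where 3 against 3 libraries cannot go below 0.1. Without OIR-Norm 3 the log2 fold change was -0.28, and without OIR-CIH 2 it was -0.83, with an adjusted p of at least 0.213 whichever library was left out.

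Neat1 (ENSMUSG00000092274, chr19:5824708-5845478, minus strand), the paraspeckle scaffold and the neighbour of Malat1, had 26.4, 25.7 and 14.7 CPM in OIR-CIH and 22.0, 39.2 and 25.2 CPM in OIR-Norm. OIR-CIH 3 was again the low library, whereas OIR-Norm 2 was the high one. The log2 fold change was -0.38 (standard error 0.23, 95% interval -0.87 to 0.11, edgeR adjusted p = 0.491), and it was -0.10 without OIR-Norm 2 and -0.55 without OIR-Norm 1. The neighbouring coding gene Frmd8 had a log2 fold change of -0.30 and was not called.

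Kcnq1ot1 (ENSMUSG00000101609, chr7:143203458-143296549, minus strand) is the paternally expressed antisense RNA that silences its neighbours in an imprinted cluster. It had 18.8, 34.8 and 15.8 CPM in OIR-CIH and 28.4, 30.9 and 36.4 CPM in OIR-Norm. OIR-CIH 1 and 3 lay below each control, and OIR-CIH 2 lay among them. The mean was 23.1 ± 10.2 CPM (SD, n = 3) against 31.9 ± 4.10 (SD, n = 3), and the log2 fold change was -0.47 (standard error 0.22, 95% interval -0.96 to 0.02, edgeR adjusted p = 0.386, exact permutation p = 0.3). One library decided this value: without OIR-CIH 2 the log2 fold change was -0.89 with an edgeR adjusted p of 0.024, so that Kcnq1ot1 would be called, and without OIR-CIH 3 it was -0.25.

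The neighbours that the Kcnq1ot1 cluster holds were read beside it. Cdkn1c, a maternally expressed inhibitor of the cell cycle in that cluster, had 27.9, 23.1 and 23.4 CPM in OIR-CIH and 19.3, 18.1 and 17.3 in OIR-Norm, so each OIR-CIH library was above each control. Its log2 fold change of 0.44 (standard error 0.10) did not pass in edgeR (adjusted p = 0.127), and DESeq2 gave an adjusted p of 0.0176 but a fold of 0.44 (log2), short of the 0.5 that a call requires. Kcnq1, the potassium channel gene that Kcnq1ot1 runs through on the opposite strand with 121 shared exonic bases, had under 2 CPM in every library and a log2 fold change of -0.70 (standard error 0.36, edgeR adjusted p = 0.421), which was -0.32 without OIR-Norm 2 and -0.96 without OIR-Norm 3. Slc22a18 was under 1 CPM and Phlda2 had too few reads to be tested.

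Meg3 (ENSMUSG00000021268, chr12:109541001-109571726, plus strand), the maternally expressed RNA of the imprinted Dlk1-Dio3 cluster, had 713, 784 and 456 CPM in OIR-CIH and 579, 954 and 733 CPM in OIR-Norm. OIR-CIH 3 was the low library here too, and OIR-CIH 1 and 2 lay inside the range of the controls. The mean was 651 ± 172 CPM (SD, n = 3) against 755 ± 189 (SD, n = 3), and the log2 fold change was -0.21 (standard error 0.19, 95% interval -0.64 to 0.21, edgeR adjusted p = 0.669). Without OIR-Norm 2 it was -0.012.

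Rian and Mirg, which follow Meg3 along the same cluster and host further small RNAs, were not called either, with log2 fold changes of 0.08 (edgeR adjusted p = 0.82) and -0.22 (adjusted p = 0.553). For Mirg it was -0.10 without OIR-CIH 3 and -0.31 without OIR-Norm 1. Rian had 198, 236 and 174 CPM in OIR-CIH and 157, 205 and 213 in OIR-Norm, with OIR-Norm 1 as the low library. The paternally expressed coding genes Dlk1 and Rtl1 were near the lower end of detection, at 0.277 to 1.33 CPM. Dio3, which encodes a thyroid hormone deiodinase, had 6.08 ± 1.66 CPM (SD, n = 3) against 7.55 ± 2.13 (SD, n = 3), and none of the 3 was called.

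Miat (ENSMUSG00000097767, chr5:112213228-112229395, minus strand), the repeat-bearing RNA shown above, had 50.6, 58.6 and 38.8 CPM in OIR-CIH and 35.0, 55.6 and 53.8 CPM in OIR-Norm. Each group had 1 low library, OIR-CIH 3 and OIR-Norm 1. The log2 fold change was 0.03 (standard error 0.17, 95% interval -0.34 to 0.41, edgeR adjusted p = 0.949), and its sign was negative when counts were scaled by library size alone and when OIR-CIH 2 or OIR-Norm 1 was left out. Miat shares 2260 exonic bases with Gm26953 on the other strand, and that gene had too few reads to be tested.

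Snhg11 (ENSMUSG00000044349, chr2:158375638-158386145, plus strand), a neuronal host gene of small nucleolar RNAs (snoRNAs), had 566, 569 and 381 CPM in OIR-CIH and 344, 542 and 507 CPM in OIR-Norm. The same 2 libraries as for Miat, OIR-CIH 3 and OIR-Norm 1, were low. The mean was 505 ± 108 CPM (SD, n = 3) against 464 ± 106 (SD, n = 3), and the log2 fold change was 0.12 (standard error 0.17, 95% interval -0.25 to 0.50, edgeR adjusted p = 0.796). It was -0.06 without OIR-Norm 1 and 0.29 without OIR-CIH 3.

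Rmst (ENSMUSG00000112117, chr10:92071037-92165170, minus strand), a neural RNA known to act with the transcription factor Sox2, had 10.7, 13.5 and 11.1 CPM in OIR-CIH and 8.24, 13.6 and 11.2 CPM in OIR-Norm. It rests on 254 to 421 reads per library, the thinnest counts of the 10 genes. The log2 fold change was 0.09 (standard error 0.16, 95% interval -0.26 to 0.45, edgeR adjusted p = 0.841), and its sign was negative without OIR-CIH 2 or without OIR-Norm 1. Nedd1, the nearest coding gene on its right though 519576 bases away, had a log2 fold change of -0.02.

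Vax2os (ENSMUSG00000085794, chr6:83692806-83712201, minus strand) had 214, 221 and 182 CPM in OIR-CIH and 168, 185 and 206 CPM in OIR-Norm. The OIR-CIH values were among the upper ones, but OIR-CIH 3 lay below 2 controls. The mean was 206 ± 20.9 CPM (SD, n = 3) against 187 ± 18.9 (SD, n = 3), and the log2 fold change was 0.14 (standard error 0.096, 95% interval -0.07 to 0.35, edgeR adjusted p = 0.562, exact permutation p = 0.3). It was 0.06 without OIR-Norm 1 and 0.22 without OIR-CIH 3. Its opposite-strand partner Vax2, the transcription factor of the ventral eye, had 43.8, 37.4 and 38.4 CPM in OIR-CIH and 35.3, 26.3 and 31.0 in OIR-Norm. Each OIR-CIH library was above each control for Vax2, though its log2 fold change of 0.37 (standard error 0.11) did not pass (edgeR adjusted p = 0.227). The pair shares 0 exonic bases.

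Six3os1 (ENSMUSG00000093460, chr17:85600651-85618398, minus strand) had 110, 106 and 103 CPM in OIR-CIH, and 99.7, 120 and 97.6 CPM in OIR-Norm. All 3 OIR-CIH values fell inside the range of the controls. The log2 fold change was 0.01 (standard error 0.087, 95% interval -0.18 to 0.20, edgeR adjusted p = 0.968), which leaves a fold between 0.884 and 1.15, and its sign changed under scaling by library size alone and with 3 of the 6 libraries left out. Six3 itself, a transcription factor of eye and forebrain formation that shares 106 exonic bases with it, had 109, 107 and 129 CPM in OIR-CIH and 120, 111 and 106 in OIR-Norm, and the log2 fold change was 0.03 (standard error 0.089).

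Tug1 (ENSMUSG00000056579, chr11:3639785-3649673, minus strand) had 134, 131 and 137 CPM in OIR-CIH and 140, 132 and 137 CPM in OIR-Norm. The 6 values lay within 1.07-fold of each other, and no library stood apart. The mean was 134 ± 3.09 CPM (SD, n = 3) against 136 ± 3.97 (SD, n = 3), and the log2 fold change was -0.02 (standard error 0.068, 95% interval -0.17 to 0.13, edgeR adjusted p = 0.923). That interval corresponds to a fold between 0.889 and 1.09, the narrowest of the 10. Its divergent neighbour Morc2a, with which it shares 483 exonic bases, had 63.1 ± 2.96 CPM (SD, n = 3) against 66.5 ± 1.60 (SD, n = 3).

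**Figure D2:**
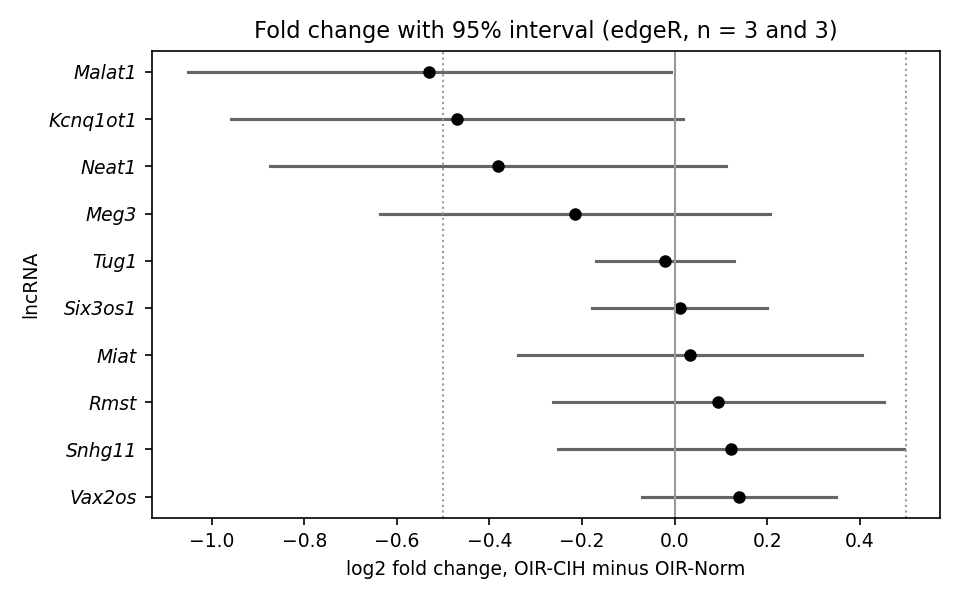
Log2 fold change (OIR-CIH minus OIR-Norm) of each lncRNA with its 95% interval from edgeR, 3 libraries per group, with dotted lines at the minimum of 0.5 in each direction. Intervals run from -1.05 to -0.00776 for Malat1 and from -0.17 to 0.13 for Tug1, and 9 of the 10 include 0.

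The spread between libraries of the same group separated these RNAs into wide and narrow. It was measured as the SD of log2 CPM within groups and placed among the 10544 genes with a mean of at least 10 CPM, a description that uses no comparison of the groups. For Malat1 the SD was 0.488, larger than that of 99.5% of those genes, and for Neat1 (0.457), Kcnq1ot1 (0.442), Meg3 (0.390), Snhg11 (0.343) and Miat (0.339) it was larger than that of at least 98.7%. Rmst, at 0.288, exceeded 98.0%. Vax2os (0.148) and Six3os1 (0.119) exceeded 75.9% and 58.7%, and Tug1, at 0.0380, only 3.14%.

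Thus 7 of the 10 were in the upper 5% of genes by spread, beside 28.6% of the 196 lncRNA genes, these 10 included, and 4.55% of the 10343 coding genes at this level. Other lists were wide too: 2 of 3 imprinted, 2 of 5 neural and microRNA host, 2 of 6 further and 2 of 11 snoRNA host lncRNAs. So were all endothelial and mural (4), pigment epithelium (3), lens (2) and blood (2) markers at this level, against 0 to 1 in each other marker list. For scale, the SD that the read counts alone would give was 0.00862 for Malat1, 0.0535 for Neat1, 0.0524 for Kcnq1ot1, 0.0788 for Rmst and 0.0226 for Tug1. From 6 to 7 of the 10 stayed in that upper 5% whichever library was left out, with Kcnq1ot1 leaving it without OIR-CIH 2 and Rmst without OIR-Norm 1, and 7 did under each other scaling.

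**Figure D3:**
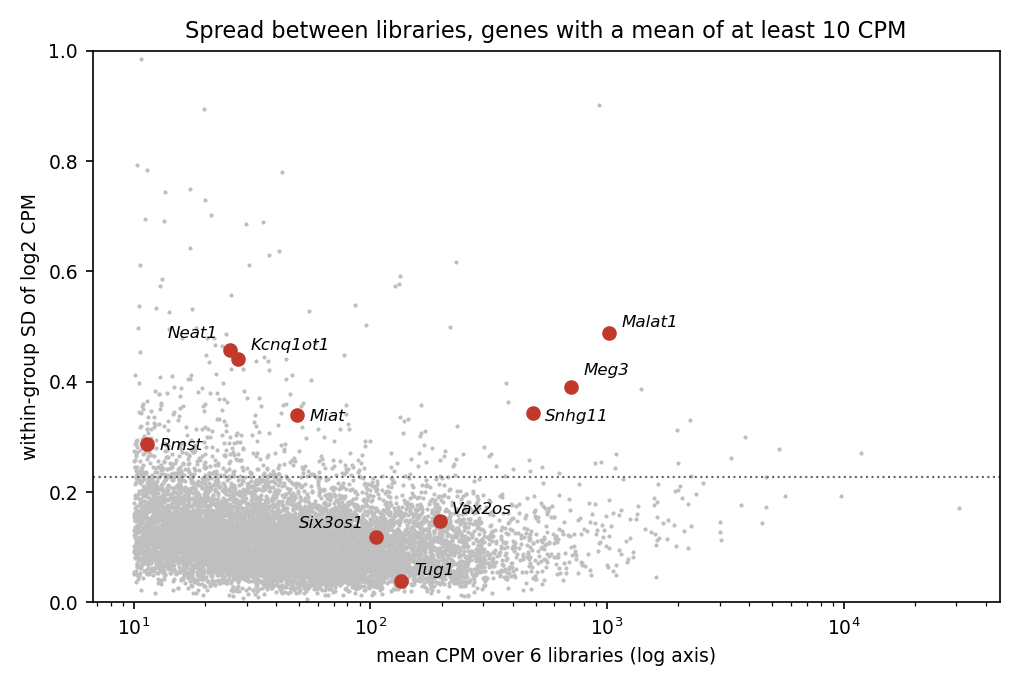
Within-group SD of log2 CPM against mean CPM (log axis) for the 10544 genes with a mean of at least 10 CPM (grey), with the 10 lncRNAs in red and a dotted line above which the upper 5% lie; 10 genes are beyond the axis limit of 1. Malat1, Meg3 and Snhg11 lie above the dotted line, and Tug1 lies near the lower edge. Other abundant genes are also wide, among them Xist (SD 0.902) and Mir124a-1hg (0.387), 2 lncRNAs outside the set.

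Within each group, the 7 wide RNAs largely had their low and high values in the same libraries. The share of all genes with this order of libraries is not given here, so it is not known to be particular to these RNAs. OIR-Norm 1 was the lowest OIR-Norm library for 7 of the 7, OIR-CIH 3 the lowest OIR-CIH library for 6 and OIR-CIH 2 the highest for 6, with Rmst lowest in OIR-CIH 1 and Neat1 highest there. In OIR-Norm the highest library was OIR-Norm 2 for 5 of them and OIR-Norm 3 for Malat1 and Kcnq1ot1. Over all 6 libraries and all 10 RNAs, OIR-CIH 3 was the lowest for Malat1, Neat1, Meg3 and Kcnq1ot1, and OIR-Norm 1 for Miat, Snhg11, Rmst and Vax2os. OIR-Norm 2 was the highest for Neat1, Meg3, Rmst and Six3os1, OIR-CIH 2 for Miat, Snhg11 and Vax2os, and OIR-Norm 3 for Malat1 and Kcnq1ot1. Together the 10 RNAs took 0.187% of all counts in OIR-CIH 3 and 0.349% in OIR-Norm 3, with the other 4 libraries between. OIR-CIH 3 had the largest total count and the smallest share of mitochondrially encoded RNA (2.36%, against 2.45% to 3.48% elsewhere). OIR-Norm 2 was the library with the most lens marker RNA. Xist had 994, 1092 and 724 CPM in OIR-CIH 1 to 3 and 298, 1653 and 777 in OIR-Norm 1 to 3. Rod markers summed to 56544, 48763 and 51976 CPM in OIR-CIH 1 to 3 and 56252, 42882 and 45346 in OIR-Norm 1 to 3. The part of any of these in the values of the 10 RNAs was not tested.

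**Figure D4:**
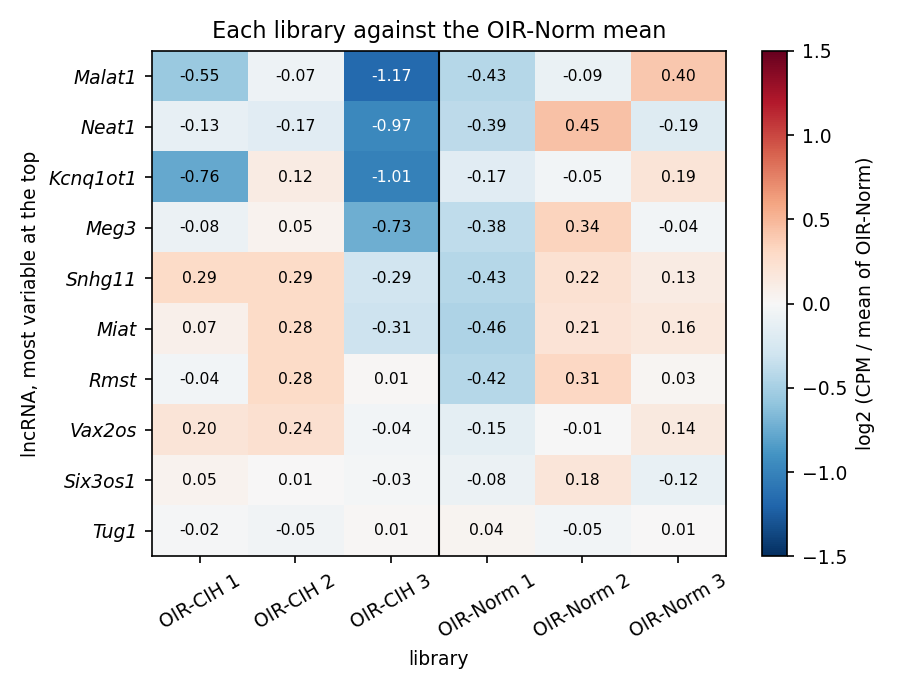
Log2 ratio of the CPM of each lncRNA in each library to the mean of the 3 OIR-Norm libraries, with genes ordered from the widest spread (top) to the narrowest (bottom) and red above, blue below that mean. OIR-CIH 3 reaches -1.17 for Malat1, -1.01 for Kcnq1ot1 and -0.97 for Neat1, while Tug1 stays between -0.05 and 0.04 in all 6 libraries.

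Other lncRNAs and the protein partners of these RNAs were read from the same edgeR fit. No gene was called among 14 snoRNA host lncRNAs, 6 imprinted lncRNAs, 13 neural and microRNA host lncRNAs, 7 further lncRNAs, 14 paraspeckle proteins, 15 speckle and Malat1 processing proteins and 11 locus partner genes tested. The snoRNA hosts had the largest median, 0.22 on the log2 scale, with 13 of 14 estimates above 0, against 9840 of all 20021 genes tested. An unadjusted edgeR p under 0.05 was found for 5 of the 14, all 5 higher in OIR-CIH, against 6.3% of all genes tested. Snhg12 had 32.7, 28.4 and 28.1 CPM in OIR-CIH and 23.6, 23.6 and 24.7 in OIR-Norm, with no overlap and a log2 fold change of 0.31 (standard error 0.089, edgeR adjusted p = 0.213). Zfas1 and Snhg8 had log2 fold changes of 0.31 and 0.26 (edgeR adjusted p of 0.272 for each). Snhg11, the snoRNA host among the 10, had 0.12.

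Among the imprinted lncRNAs, H19, a maternally expressed RNA of the Igf2 region, had 6.12, 8.77 and 6.72 CPM in OIR-CIH and 14.6, 14.7 and 10.2 in OIR-Norm. Each OIR-CIH library was below each control, and the log2 fold change of -0.87 (standard error 0.17) missed the threshold in edgeR (adjusted p = 0.0557) and was called by DESeq2. Among the microRNA hosts, Mir124a-1hg, the host of a neuronal microRNA, had 1347, 1396 and 894 CPM in OIR-CIH and 1171, 2069 and 1466 in OIR-Norm. Its SD was larger than that of 99.2% of genes, and OIR-CIH 3 and OIR-Norm 2 were its ends, as they were for Neat1 and Meg3. Its log2 fold change was -0.37, and -0.12 without OIR-Norm 2 or -0.55 without OIR-Norm 1.

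For the partners of Neat1, the paraspeckle proteins had a median log2 fold change of 0.04, and none of the 14 was in the upper 5% by spread. Pspc1, a core paraspeckle protein, had 51.1, 49.0 and 47.7 CPM in OIR-CIH and 41.1, 41.2 and 46.6 in OIR-Norm, without overlap, and a log2 fold change of 0.20 (edgeR adjusted p = 0.336). For the partners of Malat1, the median over 15 speckle and processing proteins was -0.05, with 12 estimates below 0, against 10181 of all 20021 genes tested. Mettl16, a methyltransferase that binds the Malat1 triple helix, had 34.7, 34.6 and 35.7 CPM in OIR-CIH and 40.3, 39.2 and 42.5 in OIR-Norm, without overlap, and a log2 fold change of -0.22 (edgeR adjusted p = 0.286). Srrm2, a scaffold protein of speckles, had a log2 fold change of -0.27 (edgeR adjusted p = 0.304).

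**Figure D5:**
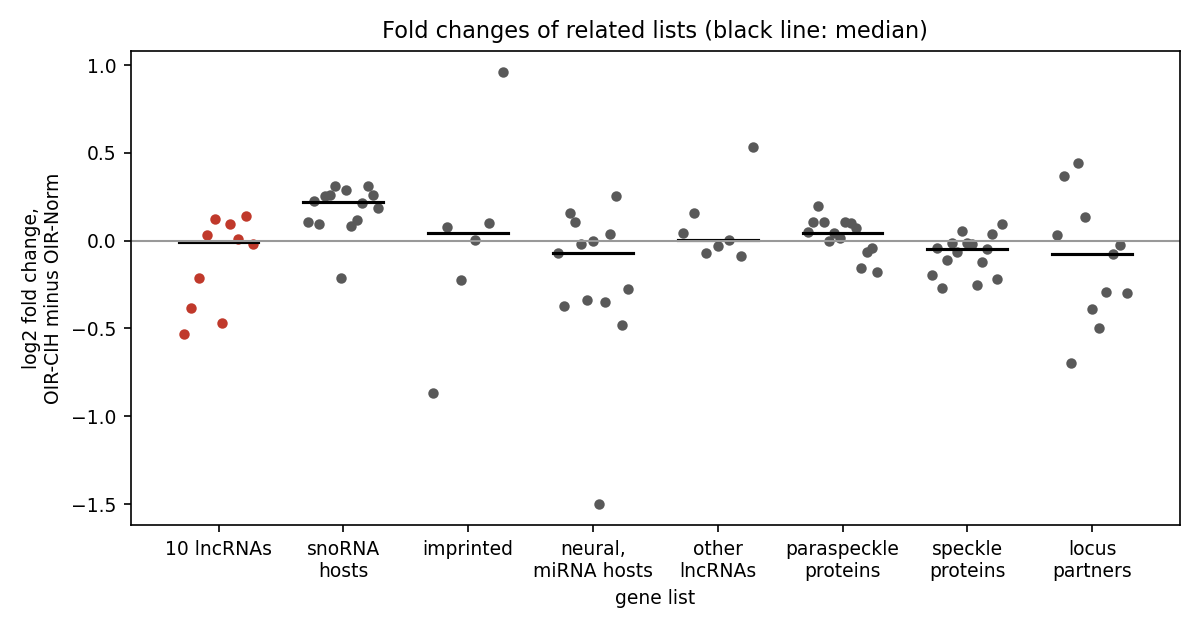
Log2 fold change (OIR-CIH minus OIR-Norm) of every tested gene in the set of 10 lncRNAs (red) and in 7 related lists (grey), with a black line at each median. Medians run from -0.07 for locus partners and for neural and microRNA hosts to 0.22 for snoRNA hosts, and no point is a called gene.

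The genes that overlap the 10 lncRNAs, and the nearest coding genes on each side, were counted as a set as well. Nearest does not always mean close: Tmpo lay 889722 bases from Rmst, Cdkn1c 161790 from Kcnq1ot1 and Camkmt 142063 from Six3os1, whereas Frmd8 lay 4224 from Neat1. Of 22 nearest or overlapping genes, 20 were tested and 0 were called, against 0.315% of all genes tested. An unadjusted edgeR p under 0.05 was found for 2 of the 20 (Cdkn1c and Vax2), against 13.4%. Groups did not overlap for 5 of the 20 (Cdkn1c, Vax2, Tmpo, Camkmt and Six2), against 18.4%.

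The promoters of Malat1 and Kcnq1ot1, the pair with the most negative fold changes, are shown because hypoxia-inducible factors bind the core ACGTG or GCGTG (RefSeq, GRCm38.p6, 250 bases before to 50 after the start, gene strand). Capitals mark either core on either strand, and the reverse strand reads CACGT or CACGC.
Malat1, chr19:5802623-5802922, minus strand: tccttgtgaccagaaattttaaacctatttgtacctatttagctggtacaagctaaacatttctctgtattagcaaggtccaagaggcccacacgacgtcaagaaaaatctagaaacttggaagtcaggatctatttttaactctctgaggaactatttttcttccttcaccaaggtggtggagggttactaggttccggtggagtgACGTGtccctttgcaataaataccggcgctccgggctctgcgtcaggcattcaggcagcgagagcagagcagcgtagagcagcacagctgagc
Kcnq1ot1, chr7:143296498-143296797, minus strand: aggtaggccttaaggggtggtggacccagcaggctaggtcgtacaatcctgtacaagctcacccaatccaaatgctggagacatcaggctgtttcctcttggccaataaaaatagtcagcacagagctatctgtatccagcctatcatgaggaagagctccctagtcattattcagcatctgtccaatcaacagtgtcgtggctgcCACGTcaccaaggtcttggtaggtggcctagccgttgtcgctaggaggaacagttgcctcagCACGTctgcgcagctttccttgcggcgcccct
The Malat1 promoter held 1 core and that of Kcnq1ot1 held 2. The table has 10 promoters for 8 of the genes, of which 7 held at least 1 core, both promoters of Meg3 and the second of Vax2os being without, and 43.8% of all 32851 promoters held one. Matches in these windows are a description of the letters only.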

How the data were processed

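Retinal RNA from 3 OIR-CIH and 3 OIR-Norm libraries at PN18 was sequenced, using a stranded poly(A) kit. Reads were aligned by the authors with STAR 2.7.9a, and the deposited table holds unnormalized whole-number counts for each gene. Their text names Ensembl 105 and their processing notes GRCm38, and which strand column was kept is not given in the sources used here, so counts of overlapping opposite-strand genes may share reads. Genes whose counts summed to at least 10 were tested with edgeR 4.0.16 (quasi-likelihood, TMM scaling, no covariate) in R 4.3.3, and p-values were Benjamini-Hochberg adjusted over 20021 genes. CPM uses TMM-scaled totals. The fit was tested on simulated counts that had the same dispersion (variation beyond counting noise) for every gene. That test therefore does not show how the fit performs for RNAs with a wide spread. Intervals are 95%. Alternatives used DESeq2 1.42.0, limma 3.58.1 with and without voom (0.5 CPM added without it), other scalings and filters, a replicate block, no minimum fold change and each library left out. The alternatives for the spread were added after the data were seen. Symbols, types and positions came from GENCODE M21 (GRCm38) by identifier for 32158 of 32285 genes. Named genes are the 10 lncRNAs, up to 3 genes of lowest p per list and the locus partners; Rian and others outside this rule were chosen after their values were seen. Results for 1 neighbouring gene are not reported here. Members and lists were chosen with earlier results of these data known. Replicates differed by more than sampling noise. The labels do not say that libraries came from separate animals, so p-values measure the spread between libraries.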

Additional observations from a re-analysis of the deposited data

How the results depend on the processing

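The edgeR calls over all genes numbered 63 (42 lower, 21 higher), and DESeq2 gave 135 (101 lower, 34 higher), which included all 63. Leaving out single libraries gave from 29 calls (without OIR-CIH 1) to 97 (without OIR-Norm 3), from 22 to 81 lower and from 7 to 31 higher. Of the 10 lncRNAs, 0 were called under any scaling, filter, tool, block or removal of the minimum fold, and 0 to 1 when libraries were left out, the 1 being Kcnq1ot1 without OIR-CIH 2 (range -0.89 to -0.25). An unadjusted p under 0.05 was found for 0 of the 10 with DESeq2 and with filterByExpr, for 2 with limma-voom, limma and no filter, and for 0 to 3 with libraries left out. Groups did not overlap for 0 to 2 of the 10 with a library left out: Malat1 and Kcnq1ot1 without OIR-CIH 2, Snhg11 and Vax2os without OIR-CIH 3, and 1 (Six3os1) without OIR-Norm 2. With fewer libraries groups separate more readily, and the share over all genes is not given here for these fits, so no difference is read from these counts. With library size alone, Miat (-0.000997) and Six3os1 (-0.0202) turned negative. With libraries left out, signs turned within -0.16 to 0.18 for Miat, -0.0597 to 0.286 for Snhg11, -0.0837 to 0.27 for Rmst and -0.0449 to 0.11 for Six3os1, and among neighbours within -0.0629 to 0.0824 for Six3, -0.14 to 0.34 for Slc22a18 and -0.0962 to 0.0588 for Nedd1. Cdkn1c had an adjusted p of 0.0176 with DESeq2 but stayed under the minimum fold. Imprinted lncRNAs had 1 call (H19) with DESeq2 and without a filter, and 0 to 1 with libraries left out. The number of the 10 lncRNAs in the upper 5% by spread was 6 to 7. The cause of these changes was not tested.

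The labels do not say that replicate numbers pair the libraries. Deviations of same-numbered libraries from their group means correlated at 0.162, 0.143 and -0.238. Without the differently numbered pairs beside them, these values cannot decide whether libraries were paired. A replicate block gave 68 calls, of which 48 were shared with the 63, and again called 0 of the 10 lncRNAs. Depth limits Rmst most, at 254 to 421 reads per library.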

Other observations

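Among the 3607 lncRNA genes tested, 2 were called by edgeR, and both were named after their values were seen. DESeq2 also called H19, and its number of calls over all lncRNA genes is not given here. The paper's own list of changed genes already holds Gm26670, at a log2 fold change of 0.96. Only the positive fold changes of that list were available here, so whether it also holds Gm15983 is not known. Gm15983, typed as antisense, had 20.4, 21.0 and 18.6 CPM in OIR-CIH and 39.1, 33.7 and 46.0 in OIR-Norm, a log2 fold change of -0.98 (standard error 0.11, edgeR adjusted p = 0.00209), with every OIR-CIH library below every control. Gm26670, also typed as antisense, had 12.9, 11.2 and 11.1 CPM in OIR-CIH and 5.91, 5.65 and 6.50 in OIR-Norm, a log2 fold change of 0.96 (standard error 0.12, edgeR adjusted p = 0.00457). Which coding genes share reads with these antisense genes was not tested.

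In the list of speckle and Malat1 processing proteins, 2 of 15 genes were in the upper 5% by spread, Srsf5 and Pnn. Srsf5, a splicing factor, had 489, 395 and 288 CPM in OIR-CIH and 303, 478 and 345 in OIR-Norm, so that OIR-CIH 3 and OIR-Norm 1 were its low libraries, as they were for Miat and Snhg11.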
